A study of Mus musculus with 10 samples.

Results

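The 10 genes described here, Pvalb, Mybpc2, Actn3, Myh1, Myh2, Myh4, Tnnc2, Tnni2, Tnnt3 and Atp2a1, encode proteins of fast muscle fibres, out of 19074 gene symbols on the array. They were chosen from the WTD arrays set against the WTA arrays, where Pvalb and Mybpc2 were low, so their values in that comparison are given as a description without a test. The annotation gave 12 probes for 9 of the genes, and all 12 were tested. Myh2 had no probe under its symbol and was not analysed here. Levels were measured on Illumina bead arrays with total RNA of myotubes of the mouse muscle line IM2, which were fused for 4 days and expressed PABPN1 with a FLAG tag. PABPN1 binds the poly(A) tails of RNA in the nucleus and is mutated in oculopharyngeal muscular dystrophy (OPMD). In WTD (3 arrays) the protein was wild type PABPN1-FLAG and its level low. In D7E (3 arrays) it was mutant PABPN1-FLAG, at a level that the labels call similar to that in WTA. In WTA (2 arrays) it was wild type PABPN1-FLAG. All cultures carried a PABPN1-FLAG protein, and a culture without one was not analysed here. The labels do not say whether a group was 1 clone or whether its replicates were grown separately. The p-values therefore cover the spread between these arrays alone, and that spread may be technical.

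Fast fibres contract and relax quickly because they use their own isoforms of the contractile and calcium-handling proteins. Fast myosin heavy chains drive the stroke, the fast troponin complex makes the thin filament respond to calcium, and a fast calcium pump together with the buffer parvalbumin takes calcium away again. Cultured myotubes are immature cells in which embryonic, fast and slow isoforms can be present at the same time, and in fast adult muscle many of these genes are read by factors that bind E-boxes and MEF2 sites.

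Promoter windows from 250 bases before to 50 bases after a RefSeq start site were at hand for 7 of the 10 genes, with 8 windows in all (build GRCm38.p6). The 4 shown are those of Pvalb and Mybpc2, which the results turn on, of Myh4, a fast myosin whose window held both kinds of motif, and of Tnnc2, a fast troponin subunit. In normalized level the WTD and D7E arrays of Tnnc2 overlapped with WTA, like those of the other fast troponins. Capitals mark E-boxes (CANNTG) and MEF2 sites, searched on both strands, and each line runs 5′ to 3′ on the gene's strand.
Pvalb, chr15:78206351-78206650, minus strand: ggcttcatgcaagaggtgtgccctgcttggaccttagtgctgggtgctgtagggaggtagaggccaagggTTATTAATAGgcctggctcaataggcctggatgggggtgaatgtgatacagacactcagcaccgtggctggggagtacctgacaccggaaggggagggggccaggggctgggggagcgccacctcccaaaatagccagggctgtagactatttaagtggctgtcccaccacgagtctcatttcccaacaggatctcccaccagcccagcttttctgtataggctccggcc
Mybpc2, chr7:44524620-44524919, minus strand: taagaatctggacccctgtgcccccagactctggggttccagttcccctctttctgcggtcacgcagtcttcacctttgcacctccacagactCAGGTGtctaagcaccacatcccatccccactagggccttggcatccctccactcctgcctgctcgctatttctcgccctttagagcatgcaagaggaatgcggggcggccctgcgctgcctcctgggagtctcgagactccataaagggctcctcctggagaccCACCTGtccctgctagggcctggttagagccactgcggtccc
Myh4, chr11:67237562-67237861, plus strand: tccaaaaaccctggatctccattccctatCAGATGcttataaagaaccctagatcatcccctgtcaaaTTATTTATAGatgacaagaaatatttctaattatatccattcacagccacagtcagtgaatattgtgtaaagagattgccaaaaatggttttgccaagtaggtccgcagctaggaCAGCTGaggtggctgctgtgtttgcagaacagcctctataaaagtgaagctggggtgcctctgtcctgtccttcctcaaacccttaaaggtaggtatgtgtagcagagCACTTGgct
Tnnc2, chr2:164779685-164779984, minus strand: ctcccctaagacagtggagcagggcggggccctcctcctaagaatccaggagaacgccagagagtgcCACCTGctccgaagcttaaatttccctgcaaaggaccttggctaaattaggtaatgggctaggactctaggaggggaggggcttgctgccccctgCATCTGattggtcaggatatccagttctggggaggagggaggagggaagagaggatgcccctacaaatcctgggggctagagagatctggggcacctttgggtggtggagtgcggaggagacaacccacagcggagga

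The Pvalb window held a MEF2 site 180 bases before the start and no E-box. A second Pvalb start site (chr15:78204188-78204487, minus strand) had E-boxes 111 bases before and 17 bases after it. The Mybpc2 window held E-boxes 157 bases before and 8 bases after the start and no MEF2 site, and the Tnnc2 window held E-boxes 183 and 88 bases before the start. The Myh4 window held 3 E-boxes, a MEF2 site 182 bases before the start and the letters TATAAA 213 and 31 bases before it, and the TATAAA search also hit the opposite strand inside that MEF2 site. Myh1, its neighbour on chromosome 11, had a MEF2 site 211 bases before its start. An E-box was found in 5 of the 8 windows and in 72.3% of all 32851 promoter windows of the same length, and a MEF2 site in 3 of the 8 and in 3.19% of all windows. These matches are letters in the windows, and no binding was measured.

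Of the 45281 probes on an array, between 13653 and 17565 had a detection p under 0.05, and the number of arrays limits the precision. WTD replicates 2 and 3 stood at the ends of that range, and the 95th percentile of signal was 3.20 and 8.37 times the array's median on them. The probe order of the WTD arrays had to be restored through the WTA arrays before use, and all WTD values rest on that step. The Pabpn1 probe, which the labels' groups can be set against, had log2 levels of 10.24, 10.26 and 9.87 on the WTD arrays and 9.16, 9.58 and 10.58 on the D7E arrays, against 9.24 and 9.18 on the WTA arrays. The probe was thus higher on the arrays labelled WTD than on the WTA arrays, although the labels give WTD the low protein level. The log2 difference was 0.91 and was not called (limma, adjusted p = 0.205), and 14% of all tested probes were higher on every WTD array. Whether the Pabpn1 probe reads the transgene was not tested. The groups are called by their labels throughout. Levels below are normalized log2 intensities, which compare arrays for 1 probe and not probes with each other.

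Parvalbumin, encoded by Pvalb, binds calcium in fast fibres and speeds their relaxation. Pvalb was low on the WTD arrays, with the D7E arrays between these and the WTA arrays. Its raw signal (probe ILMN_1218223) was 379, 269 and 2736 on the WTD arrays and 3008, 3508 and 7089 on the D7E arrays, against 4213 and 5999 on the WTA arrays. Divided by each array's median signal this was 4.74, 3.32 and 29.8 on the WTD arrays and 32.1, 36.4 and 74.4 on the D7E arrays, against 49.9 and 72.5 on the WTA arrays. On both scales WTD replicate 3 thus stood well above the other 2 WTD arrays and just below the lowest D7E array, so the fall in WTD differed in size between the arrays.

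**Figure D1:**
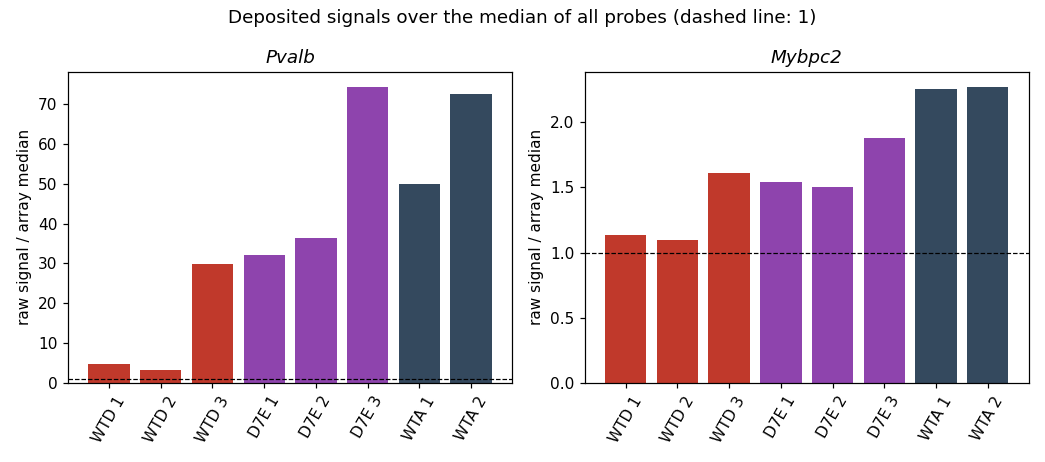
Raw Pvalb and Mybpc2 signal divided by the array's median signal, 1 bar for each array, with the groups WTD, D7E and WTA from left to right and a dashed line at 1. For Pvalb, WTD replicate 3 at 29.8 lies far above WTD replicates 1 and 2 at 4.74 and 3.32, and all 8 Mybpc2 values lie between 1.10 and 2.27 times the median.

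After normalization Pvalb had log2 levels of 8.89, 9.00 and 10.92 on the WTD arrays and 11.28, 11.18 and 12.48 on the D7E arrays, against 12.45 and 12.67 on the WTA arrays. The WTD mean was 9.60 ± 1.14 (SD, n = 3), the D7E mean 11.64 ± 0.72 (SD, n = 3) and the WTA mean 12.56 ± 0.15 (SD, n = 2). All WTD arrays lay below both WTA arrays, with a log2 difference of -2.96 ± 0.52 (SE), a 7.78-fold lower level, and this was the lowest difference among all 18815 tested probes. Without WTD replicate 3 the log2 difference was -3.65, and leaving out any 1 array gave -3.65 to -2.60. In bulk RNA, fewer cells that express a gene and less of its RNA per cell cannot be told apart.

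D7E arrays overlapped with the WTA arrays for Pvalb, because D7E replicate 3 at 12.48 lay between the WTA arrays while the other 2 D7E arrays lay below both. The difference of D7E minus WTA was -0.92 ± 0.52 (SE) and did not pass the threshold (limma, adjusted p = 0.525). With the replicate number as a block in the fit it was -1.46 (limma, adjusted p = 0.036). Over all settings run its adjusted p in limma lay between 0.036 and 0.927. All 3 D7E arrays lay above all 3 WTD arrays, by 2.04 ± 0.46 (SE) on the log2 scale, a 4.12-fold difference that did not pass the adjusted threshold either (limma, adjusted p = 0.246). These differences use the WTA or WTD arrays from which Pvalb was picked, so they are not independent of its choice. Without WTD replicate 3 the difference of D7E minus WTD was 2.72 with an adjusted p of 0.00292 in limma. With the replicate block it was 2.04 with an adjusted p of 0.00599 in limma. Over all settings run the adjusted p of D7E minus WTD lay between 0.00292 and 0.646.

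Mybpc2 encodes fast myosin-binding protein C, which sits on the thick filament and modulates cross-bridges. Its probe (ILMN_2676012) was dim on every array, at 1.13, 1.10 and 1.61 times the array's median signal on the WTD arrays and 1.54, 1.51 and 1.88 times on the D7E arrays, against 2.26 and 2.27 times on the WTA arrays. In normalized log2 levels this was 5.16, 5.36 and 5.78 on the WTD arrays and 5.90, 5.69 and 6.51 on the D7E arrays, against 7.33 and 6.99 on the WTA arrays. Every WTD and every D7E array lay below both WTA arrays. WTD and D7E arrays overlapped, since WTD replicate 3 lay above D7E replicate 2.

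The Mybpc2 means were 5.44 ± 0.32 in WTD and 6.03 ± 0.42 in D7E (SD, n = 3 each), against 7.16 ± 0.24 in WTA (SD, n = 2). WTD minus WTA was -1.72 ± 0.25 (SE), a 3.30-fold lower level. D7E minus WTA was -1.13 ± 0.25 (SE), a 2.18-fold lower mean level that did not pass the threshold (limma, adjusted p = 0.0754). Without D7E replicate 3 the difference was -1.36 (adjusted p = 0.0224 in limma), and without WTD replicate 3 it was -1.12 (adjusted p = 0.0464 in limma). With the replicate block it was -1.33 (adjusted p = 0.0326 in limma). Over all settings the adjusted p of limma lay between 0.0224 and 0.807. D7E minus WTD was 0.60 ± 0.23 (SE, adjusted p = 0.515 in limma). Near background the size rests on the background correction, and without it WTD minus WTA was -0.91 and D7E minus WTA -0.65.

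**Figure D2:**
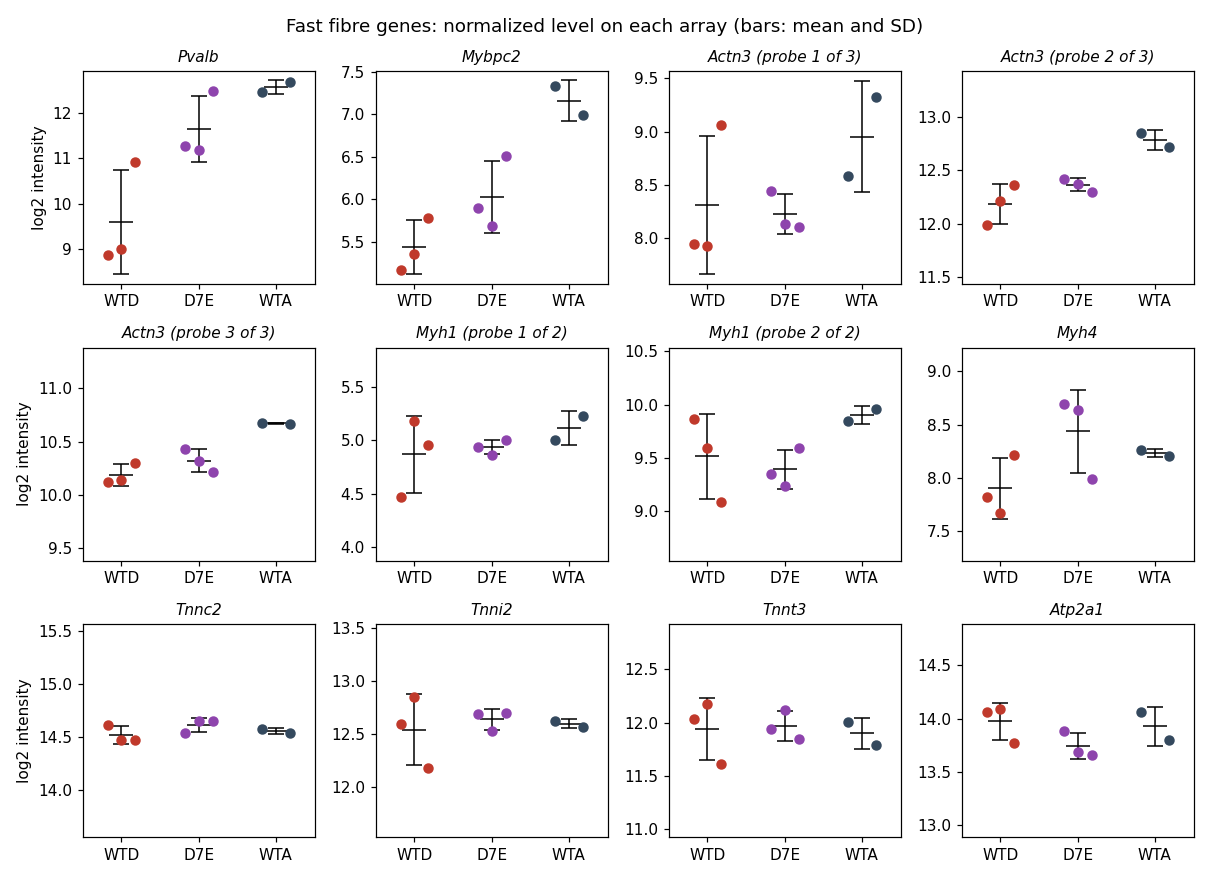
Normalized log2 intensity of the 12 probes, 1 panel for each probe and 1 point for each array, with the groups WTD, D7E and WTA from left to right and the group mean and SD as bars. Pvalb means are 9.60, 11.64 and 12.56 and Mybpc2 means 5.44, 6.03 and 7.16, while the panels of Tnnc2, Tnni2, Tnnt3 and Atp2a1 have groups that overlap.

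Actn3 encodes the fast alpha-actinin that anchors thin filaments in the Z-disc, and its 3 probes lay lower on most WTD and D7E arrays than on the WTA arrays by modest amounts. The brightest of them (ILMN_2747543) had log2 levels of 11.99, 12.21 and 12.36 on the WTD arrays and 12.42, 12.38 and 12.30 on the D7E arrays, against 12.85 and 12.72 on the WTA arrays. For this probe no WTD or D7E array reached the lower WTA array. The differences were -0.60 for WTD minus WTA and -0.42 for D7E minus WTA (adjusted p = 0.314 in limma).

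The second Actn3 probe (ILMN_3008110) had 10.12, 10.14 and 10.30 on the WTD arrays and 10.43, 10.32 and 10.21 on the D7E arrays, against 10.68 and 10.67 on the WTA arrays. It did not overlap with WTA in either group, with differences of -0.48 for WTD and -0.35 for D7E (adjusted p = 0.394 in limma). The dimmest probe (ILMN_2708303) had 7.94, 7.93 and 9.06 on the WTD arrays and 8.45, 8.14 and 8.11 on the D7E arrays, against 8.58 and 9.32 on the WTA arrays. There WTD replicate 3 lay between the WTA arrays, so WTD overlapped at a difference of -0.64, while D7E lay below both WTA arrays at -0.72 (adjusted p = 0.377 in limma). None of the 3 probes passed the threshold in D7E against WTA.

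No fast myosin heavy chain was called, where limma called 1.43% of all tested probes in WTD minus WTA and 0.569% in D7E minus WTA. In D7E minus WTA Myh1 and Myh4 differed in direction. Myh1 encodes the heavy chain of type IIx fibres and Myh4 that of type IIb fibres, the fastest of the mouse limb, and with Myh2 they lie side by side on chromosome 11 between the embryonic Myh3 and the perinatal Myh8. The brighter Myh1 probe (ILMN_2865744) had log2 levels of 9.86, 9.60 and 9.08 on the WTD arrays and 9.35, 9.24 and 9.59 on the D7E arrays, against 9.84 and 9.96 on the WTA arrays. WTD overlapped with WTA at a difference of -0.39, and D7E lay below both WTA arrays at -0.51 (adjusted p = 0.359 in limma). The other Myh1 probe (ILMN_2740259) was near background, detected on 2 of 3 WTD arrays and on all D7E and WTA arrays, with levels of 4.47 to 5.18 in WTD and 4.87 to 5.0 in D7E, against 5.01 and 5.23 in WTA. Its differences were -0.25 for WTD and -0.18 for D7E (adjusted p = 0.80 in limma).

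Myh4 (ILMN_1241214) stood at 7.82, 7.67 and 8.22 on the WTD arrays and 8.69, 8.63 and 7.99 on the D7E arrays, against 8.26 and 8.20 on the WTA arrays. D7E replicates 1 and 2 were the highest of all 8 arrays and D7E replicate 3 lay below both WTA arrays. D7E minus WTA was 0.21 (adjusted p = 0.795 in limma), D7E minus WTD was 0.54 (adjusted p = 0.522 in limma), and WTD minus WTA was -0.33. Pvalb and Myh4 therefore went opposite ways on D7E replicate 3, the highest D7E array for Pvalb and the lowest for Myh4.

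None of the fast troponins was called, where limma called 1.43% of all tested probes in WTD minus WTA and 0.569% in D7E minus WTA. Tnnc2, the calcium-binding subunit, had log2 levels of 14.61, 14.47 and 14.47 on the WTD arrays and 14.54, 14.65 and 14.65 on the D7E arrays, against 14.58 and 14.54 on the WTA arrays. Its probe (ILMN_2882658) ranked between 10 and 15 among the 45281 probes of every array, and so close to the top the quantile normalization leaves little room for a rise. The differences were -0.04 for WTD minus WTA and 0.05 for D7E minus WTA (SE 0.15 each). Divided by each array's median signal, Tnnc2 stood at 321, 375 and 346 on the D7E arrays, against 223 and 271 on the WTA arrays. On that scale D7E and WTA did not overlap.

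Tnni2, the inhibitory subunit (ILMN_2481133), had 12.60, 12.84 and 12.18 on the WTD arrays and 12.69, 12.53 and 12.70 on the D7E arrays, against 12.63 and 12.57 on the WTA arrays. Tnnt3, the subunit that ties the complex to tropomyosin (ILMN_2469018), had 12.03, 12.17 and 11.61 on the WTD arrays and 11.94, 12.12 and 11.84 on the D7E arrays, against 12.00 and 11.79 on the WTA arrays. WTD replicate 3 was the lowest of the 8 arrays for both, where for Pvalb it was the highest of the WTD arrays. The differences from WTA were -0.06 in WTD and 0.04 in D7E for Tnni2 (SE 0.20 each), and 0.04 in WTD and 0.07 in D7E for Tnnt3 (SE 0.19 each). Divided by each array's median signal, Tnni2 was 87.5 to 89.9 on the D7E arrays, against 56.6 and 68.7 on the WTA arrays. Tnnt3 on that scale was 48.4 to 68.5 on the D7E arrays, against 36.1 and 40.0 on the WTA arrays.

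Atp2a1 encodes SERCA1, the calcium pump of the fast sarcoplasmic reticulum. Its probe (ILMN_2666864) had log2 levels of 14.06, 14.09 and 13.77 on the WTD arrays and 13.88, 13.68 and 13.66 on the D7E arrays, against 14.06 and 13.79 on the WTA arrays. In these levels both WTD and D7E overlapped with WTA, at differences of 0.05 for WTD and -0.18 for D7E (adjusted p = 0.75 in limma). Divided by each array's median signal, Atp2a1 was 198, 200 and 170 on the D7E arrays, against 155 and 159 on the WTA arrays. The arrays differ in spread on that scale. Their 95th percentile of signal was 6.67 to 8.21 times the median on the D7E arrays, against 5.09 and 6.48 times on the WTA arrays. The calcium buffer of fast fibres was thus lower on every WTD array than in WTA, while for the pump and the troponins the WTD and WTA arrays overlapped, as the plot of differences shows.

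**Figure D3:**
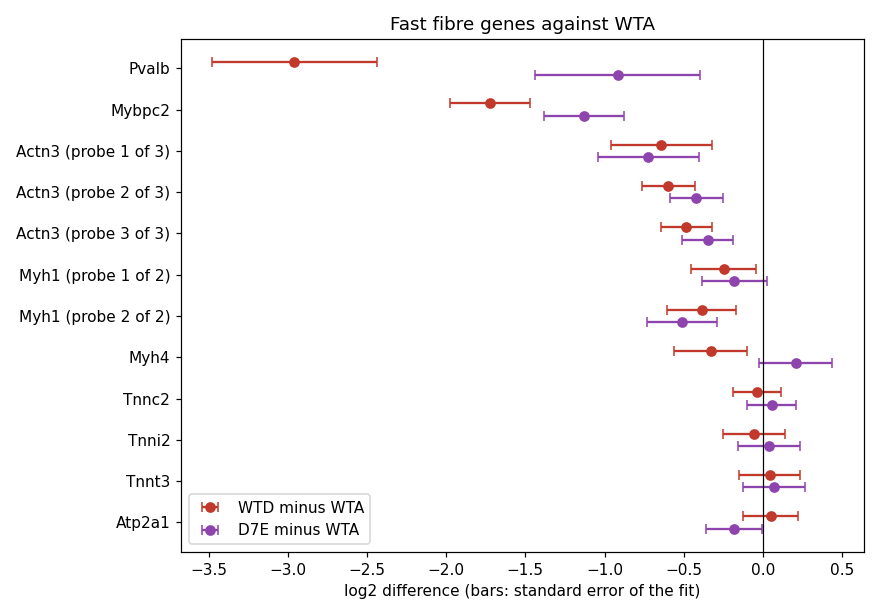
Log2 difference ± SE from the WTA arrays for each of the 12 probes, in WTD and in D7E. Pvalb at -2.96 and Mybpc2 at -1.72 stand far from 0 in WTD, and the D7E values run between -1.13 for Mybpc2 and 0.21 for Myh4.

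Counted over the 12 probes, 10 were below 0 in WTD minus WTA, against 51.9% of all tested probes. The median log2 difference was -0.36, against -0.01 over all tested probes. Of the 12, 2 were called lower at an adjusted p under 0.05, the Pvalb and Mybpc2 probes for which the set was chosen, and over all tested probes 0.606% were called lower and 0.824% higher. Groups did not overlap for 4 of the 12 probes, lower in WTD each time, against 14.7% of all tested probes. These counts describe the comparison that chose the genes and test nothing. Pvalb was not called without WTA replicate 1, WTA replicate 2, WTD replicate 1 or WTD replicate 2 (differences of -3.07, -2.86, -2.60 and -2.65), nor Mybpc2 without WTA replicate 1 (-1.56), and neither was called with median centring (-3.16 and -1.71) or without the filter on dim probes (-2.96 and -1.72). Other settings added calls for Actn3 in WTD minus WTA. ILMN_2747543 and ILMN_3008110 were called lower without background correction (-0.59 and -0.46) and with the authors' normalized values (-0.59 and -0.46). ILMN_2708303 was called lower without WTD replicate 3 (-1.02). In D7E minus WTA, 8 of the 12 were below 0, against 50.3% of all tested probes, and the median was -0.27 against -0.00. By limma 0 of the 12 were called, where 0.271% of all tested probes were called lower and 0.298% higher. At an unadjusted p under 0.05 in that comparison stood Mybpc2, the 3 Actn3 probes and the brighter Myh1 probe, all lower, against 12.4% of all tested probes in either direction. In 6 of the 12 probes every D7E array lay below both WTA arrays, against 15.8% of all tested probes. These 6 probes belong to Mybpc2, Actn3 and Myh1, and with 1 probe for each gene, the brightest, 3 of 9 genes had no overlap and 5 of 9 were below 0. The WTA arrays are shared by both comparisons, so a high level on those 2 arrays lowers both differences.

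D7E arrays set against WTD arrays gave 3 of 12 probes below 0, against 48% of all tested probes, and a median of 0.09 against 0.01. Limma called 0 of the 12, where 0.0266% of all tested probes were called. At an unadjusted p under 0.05 stood Pvalb, Mybpc2 and Myh4, each higher in D7E, against 8.12% of all tested probes in either direction, and Pvalb and Mybpc2 were picked for low values on these WTD arrays. Groups did not overlap for 1 of the 12, Pvalb, against 7.52% of all tested probes that were higher on every D7E array.

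Other genes of fast fibres had medians near 0. Of 18 such genes for contraction, calcium release and glycolysis, 14 were tested. Of the 14, 8 were below 0 in WTD minus WTA and 10 in D7E minus WTA, against 51.9% and 50.3% of all tested probes. The medians were -0.06 and -0.07. Pygm, the muscle glycogen phosphorylase, was the 1 called, lower in WTD, where 0.606% of all tested probes were called lower. It had log2 levels of 8.05, 8.0 and 8.49 on the WTD arrays and 8.37, 8.21 and 8.44 on the D7E arrays, against 9.23 and 9.09 on the WTA arrays. No WTD or D7E array reached WTA, and Pygm fell by 0.98 in WTD (limma, adjusted p = 0.0257), with a D7E difference of -0.82 (limma, adjusted p = 0.0769). The Pygm call in WTD was lost without WTA replicate 1 (-0.91, adjusted p = 0.246 in limma), WTA replicate 2, WTD replicate 1, WTD replicate 2 or D7E replicate 1 (-1.05, -0.92, -0.89 and -0.98, adjusted p = 0.0506 to 0.12 in limma). Tmod4, which caps thin filaments, had the lowest WTD difference of the list at -1.36 (limma, adjusted p = 0.0709). The highest were Casq1, the calcium store protein of fast fibres, at 0.07 in WTD, and Myoz1, a Z-disc protein, at 0.29 in D7E.

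**Figure D4:**
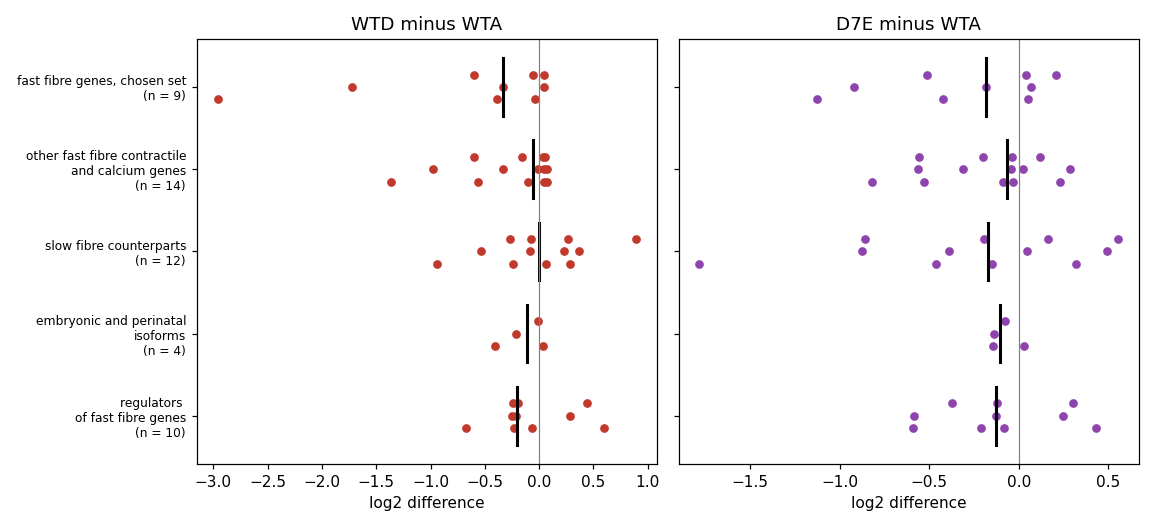
Log2 differences from the WTA arrays by gene list, 1 point for each gene (its brightest probe) with the list's median as a line, in WTD and in D7E. The chosen fast fibre genes reach -2.96 (Pvalb) and the other fast fibre genes -1.36 (Tmod4) in WTD, and the slow fibre genes reach -1.78 (Myl2) in D7E.

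The slow fibre counterparts of the same proteins passed no threshold in WTD, where 1.43% of all tested probes were called. Of the 12 tested genes 6 were below 0, against 51.9% of all tested probes. In D7E minus WTA 7 of 12 were below 0, against 50.3% of all tested probes, and 1 was called lower, against 0.271%. That gene was Myl2, the slow regulatory light chain, which fell by 1.78 in D7E against WTA (limma, adjusted p = 0.0266) and had a log2 difference of -2.01 in D7E against WTD (limma, adjusted p = 0.0437). The first call was lost without either WTA array and without D7E replicates 1 and 2, each left out alone (-1.56, -2.01, -1.61 and -1.67, adjusted p = 0.0763 to 0.333 in limma), and the second held only without WTD replicate 3 or D7E replicate 3 among the 8 arrays left out in turn. Myh7, the slow myosin heavy chain, differed from WTA by -0.94 in WTD and -0.88 in D7E, and Mybpc1, the slow myosin-binding protein C, by -0.24 and -0.86, none of them called. Actn2, the alpha-actinin of all fibres, differed by -0.26 in WTD and -0.46 in D7E, and the slow calcium pump Atp2a2 by 0.06 and -0.15. The slow troponins Tnnc1, Tnni1 and Tnnt1 differed from WTA by -0.07, 0.29 and 0.26 in WTD and by 0.05, 0.32 and 0.17 in D7E. Csrp3, a Z-disc protein of slow and cardiac muscle, had the highest WTD difference of the list at 0.89.

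Of 7 embryonic and perinatal isoforms 4 were tested and none was called by limma in either comparison, the lowest being the perinatal myosin Myh8 at -0.41 in WTD and the acetylcholine receptor subunit Chrng at -0.14 in D7E. Of 17 transcriptional regulators linked to fast fibres 10 were tested. None of these or of the 4 isoforms was called by limma, against 1.43% of all tested probes in WTD minus WTA and 0.569% in D7E minus WTA. The extremes were Eya3, a cofactor of homeodomain factors, at -0.67 and Prox1, which favours slow fibres, at 0.60 in WTD, and Ppargc1a, a driver of oxidative fibres, at -0.59 and Myod1 at 0.43 in D7E.

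Markers of myotubes and of other cells were summed on a linear, background-corrected scale. All 8 myotube markers were detected on all arrays, with sums of 80202 to 80937 in WTD and 77905 to 82888 in D7E, against 79632 to 93799 in WTA. Tnnc1 and Acta1 were the brightest, so these sums mostly follow those probes. Quantile normalization limits how far such bright probes can differ. Tnnc1 had the same log2 level of 15.03 on all 3 D7E arrays. Its raw signal was 42999 to 45247 there, against 27184 and 27796 on the WTA arrays. Near-equal sums therefore do not measure equal myotube content. Of the 8, 5 were below 0 in WTD and 6 in D7E, against 51.9% and 50.3% of all tested probes. None of the 8 was called, where 1.43% and 0.569% of all tested probes were called. Ckm differed from WTA by -0.42 in WTD and -0.58 in D7E, Ttn by -0.46 and -0.34, and Myog by 0.27 and 0.47. Of 6 markers of myoblasts and proliferating cells 4 had a probe under their symbol, with sums of 60.7 to 84.2 in WTD and 30.01 to 39.0 in D7E, against 69.2 to 74.0 in WTA. Of these 4, 1 was detected on all arrays, and Pax7 was not detected. The 6 fibroblast markers summed to 1670 to 1985 in WTD and 1882 to 2687 in D7E, against 2558 to 3071 in WTA, so the WTD sums did not overlap with WTA. Of the fibroblast markers Col1a1 and Col3a1 differed from WTA by -0.74 and -0.82 in WTD, and Col1a2 by 0.32. The 5 adipocyte markers summed to 14.3 to 30.1 in WTD and 24.1 to 30.6 in D7E, against 36.4 to 43.5 in WTA, and lay below WTA on all WTD and D7E arrays. Their levels were near background, with Fabp4 and Plin1 not detected and none of the 5 detected on all arrays. Adipoq was detected on 0 of 2 WTA arrays, and Pparg was the brightest in WTA at a mean log2 level of 5.40. The differences in WTD were -0.82 for Pparg and 0.25 for Adipoq. The 4 smooth muscle markers summed to 25761 to 28593 in WTD and 23856 to 25792 in D7E, against 22769 to 26338 in WTA, with Cnn1 and Myh11 not detected. These sums mostly follow Acta2, by far the brightest of the 4. Tagln rose by 1.503 in WTD (limma, adjusted p = 0.0059) and by 1.34 in D7E (limma, adjusted p = 0.0188). Tagln was near background on the WTA arrays (log2 levels of 5.14 and 5.23), and without background correction its differences were 0.708 in WTD and 0.613 in D7E. The Tagln call was lost without WTA replicate 1 in WTD (1.46, adjusted p = 0.0889 in limma) and, in D7E, when either WTA array or the first or second D7E array was left out (1.30, 1.39, 1.20 and 1.34, adjusted p = 0.0858 to 0.292 in limma). The part of these markers in the Pvalb and Mybpc2 values was not tested.

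Among 10834 genes read on their brightest probe, the patterns most like Pvalb over the 8 arrays were those of Cited2 (Pearson r = 0.983), Mtrf1 (0.976), Tgm2 (0.972), Pomgnt2 (0.971) and Thbs2 (0.965), with Spearman rho between 0.881 and 0.976. Of these Thbs2, a matrix glycoprotein, had a range of 2.84 in log2 level and Cited2, a transcriptional coregulator, one of 0.94. The patterns most like Mybpc2 were those of Prxl2a (r = 0.991), Scn3a (0.982), Grb10 (0.982), Lmcd1 (0.979) and Fahd1 (0.971), with rho between 0.905 and 0.976. Lmcd1, a LIM domain protein of muscle, differed from WTA by -2.12 in WTD and -1.21 in D7E. Within the 10 genes, the Mybpc2 probe had r = 0.895 with the Pvalb probe and r = 0.904 with the brightest Actn3 probe, and the Pvalb probe had r = -0.468 with Tnnt3. These are descriptions over 8 arrays that share their normalization and fall into 3 groups, among which the genes were picked.

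**Figure D5:**
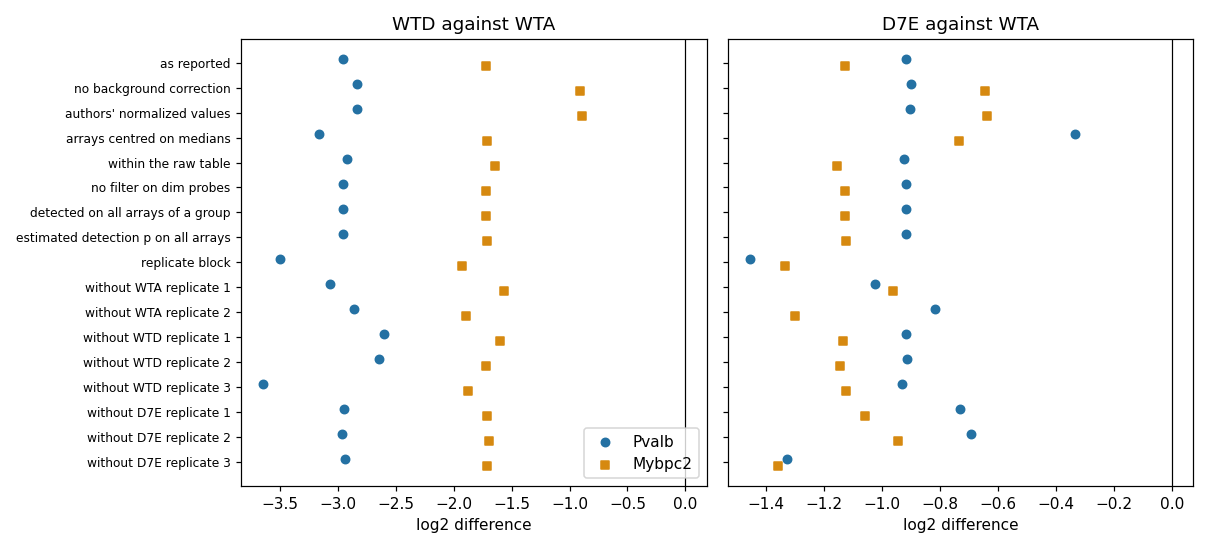
Log2 difference from the WTA arrays of Pvalb and Mybpc2 under each processing setting, in WTD and in D7E. Pvalb stays between -3.65 and -2.60 in WTD and between -1.46 and -0.34 in D7E, and Mybpc2 between -1.93 and -0.89 in WTD and between -1.36 and -0.64 in D7E.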

How the data were processed

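Total RNA of IM2 myotubes was amplified and biotin-labelled with Illumina's TotalPrep kit, per the labels. Per the file headers, the raw tables give an intensity signal and a detection p-value for 45281 probes and each array, deposited without normalization, and no version of the scanner software is named in the sources used here. Also deposited by the authors were normalized log2 intensities, used as an alternative. WTA signals in both raw tables were identical, so 2 WTA arrays were counted once. No WTA replicate 3 was analysed here.

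WTD signals stood in another row order. The pair of WTA ranks matched all 45281 probes between the raw table and the normalized values, and rank correlations of WTD with WTA arrays, -0.00787 to 0.0025 as deposited, were 0.725 to 0.789 once restored. On WTD replicates 1 and 3 the deposited detection p-values did not follow the signals, so they were estimated from 23132 background probes. On the 6 other arrays such an estimate and the deposited p-value made the same call in 97.3% to 98.8% of probes.

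All 8 arrays were normalized together with neqc of limma 3.58.1 (R 4.3.3, offset 16). Probes with a detection p under 0.05 on at least 2 arrays (18815) were tested two-sided with lmFit and eBayes in 1 fit with 3 group means, and p-values were adjusted over all of them (Benjamini-Hochberg, threshold 0.05). The scripts were tested on simulated data. A gene is read on its brightest tested probe, and the genes of main interest on all probes. Symbols came from the platform annotation, in which 34885 probes have 1 symbol, 18 several and 10378 none. Promoter windows are RefSeq's (GRCm38.p6). Batches could not be tested, as the headers hold neither slide nor date. The 10 genes and the gene lists were chosen with earlier results of these data known. Named genes are the 10, 7 fixed counterparts, list members past the threshold or at a list's ends, and the 5 most similar patterns for Pvalb and Mybpc2. Alternatives covered background correction, normalization, the filter, the replicate block and each array left out.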

Additional observations from a re-analysis of the deposited data

How the results depend on the processing

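The calls over all tested probes moved with the settings, and so did the calls of Pvalb and Mybpc2 in WTD against WTA. In WTD against WTA, 269 probes were called, against 0 with median centring in place of quantile normalization (317 with an unadjusted p below 0.05) and 62 with no filter, and 2 (without WTA replicate 1) to 409 (without WTD replicate 3) with 1 array left out. In D7E against WTA, 107 were called, against 272 with quantile normalization and no background correction, 276 with the authors' normalized values, 0 with median centring (1094 unadjusted), 71 with normalization within the raw table, 59 without the filter and 52 with the replicate block, and 0 (without WTA replicate 1, 1521 unadjusted) to 186 (without D7E replicate 3) with 1 array left out. In D7E against WTD, 5 were called by limma, against 2 without background correction, 2 with the authors' values, 0 with median centring (2260 unadjusted), 0 from those 6 arrays alone (1529 unadjusted), 0 without the filter (2892 unadjusted), 1 with detection on all arrays of a group, and 0 to 72 (without WTD replicate 3) with 1 array left out. Of 576 values of the fast fibre probes under other settings, 25 changed sign, 9 of them in WTD minus WTA, where Tnni2, Tnnt3 and Atp2a1 had differences near 0, and 16 in the other comparisons. With median centring the median of all tested probes was -0.09 in WTD minus WTA, 0.26 in D7E minus WTA and 0.40 in D7E minus WTD, and D7E minus WTA was 0.185 and 0.205 for Actn3 (ILMN_2747543, ILMN_3008110), 0.0296 and 0.0144 for Myh1 and 0.38 for Atp2a1, and D7E minus WTD 0.61 for Actn3 (ILMN_2708303), 0.60 for Myh1 (ILMN_2865744) and 0.50 for Atp2a1. Of these, Actn3 and Myh1 in D7E minus WTA lay below the median of all probes and the others above it. Over all settings run, D7E minus WTA reached 0.612 for Tnnc2, 0.627 for Tnni2 and 0.657 for Tnnt3, none of them called. With 1 array left out, D7E minus WTA of Tnnt3 ran from -0.0341 to 0.175, and D7E minus WTD from -0.27 to 0.29 for Actn3 (ILMN_2708303), -0.14 to 0.24 and -0.34 to 0.0518 for Myh1 (ILMN_2740259, ILMN_2865744), -0.0885 to 0.246 for Tnni2 and -0.14 to 0.14 for Tnnt3. The causes of these moves were not tested. Whether replicate numbers pair the arrays was not settled. Same-numbered deviations from group means had correlations of 0.150 and -0.275 (WTD, WTA), -0.05 and -0.02 (D7E, WTA) and -0.10 to -0.02 (D7E, WTD). Deviations within a group sum to 0 by construction, and those of the 2 WTA arrays mirror each other, so these values cannot exclude a pairing. With the replicate block 311 and 7 probes were called in WTD against WTA and D7E against WTD, Pvalb was -1.46 (limma, adjusted p = 0.036) and Mybpc2 -1.33 (limma, adjusted p = 0.0326) in D7E minus WTA, and Pvalb 2.04 (limma, adjusted p = 0.00599) in D7E minus WTD. The calls of Pygm, Myl2 and Tagln were lost with median centring and without the filter, where the differences were -1.19 and -0.98 for Pygm in WTD, 1.24 and 1.503 for Tagln in WTD, 1.70 and 1.34 for Tagln in D7E, and, for Myl2, -1.22 and -1.78 in D7E minus WTA and -1.29 and -2.01 in D7E minus WTD, and those of Myl2 also with the replicate block (adjusted p = 0.0723 in D7E against WTA and 0.0715 in D7E against WTD, limma). Signal over background limits Mybpc2 and the dimmer Myh1 probe, 2 WTA arrays limit both comparisons against WTA, and the top ranks of Tnnc2 limit how far its probe can rise.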
